A study of Homo sapiens with 12 samples.

Results

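The genes described here are those of the AP-1 transcription factor family: the FOS-type genes FOS, FOSB, FOSL1 and FOSL2, the JUN-type genes JUN, JUNB and JUND, and ATF3. They were taken by symbol from a table of gene counts with 51838 entries, in which all 8 were found, as FOS (ENSG00000170345.4), FOSB (ENSG00000125740.7), FOSL1 (ENSG00000175592.3), FOSL2 (ENSG00000075426.7), JUN (ENSG00000177606.5), JUNB (ENSG00000171223.4), JUND (ENSG00000130522.3) and ATF3 (ENSG00000162772.12). All 8 were also among the 28141 entries that passed the filter on low counts. RNA had been sequenced from 2 human breast cancer cell lines labelled basal-like, HCC70 and MDA-MB-231. The libraries form 4 groups of 3: HCC70 after 4 h with 100 nM dexamethasone, HCC70 after 4 h with an equal volume of ethanol (vehicle), and MDA-MB-231 after each of the same treatments. Dexamethasone is a synthetic glucocorticoid, and the series asked which genes its receptor and STAT3 control. HCC70 cells grew in RPMI and MDA-MB-231 cells in DMEM, both with serum, and a difference between the lines cannot be told apart from one between their media; each line stands only for itself.

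AP-1 is a dimer of basic leucine zipper proteins. FOS proteins cannot pair with one another and need a JUN partner, whereas JUN proteins pair with themselves, with FOS proteins or with ATF proteins such as ATF3. FOS, FOSB, JUN, JUNB and ATF3 are known as immediate early genes, switched on within minutes by growth factors or stress through MAP kinases, while FOSL1 and FOSL2, which encode Fra-1 and Fra-2, are more slowly induced. The ligand-bound glucocorticoid receptor is known both to act at its own DNA elements and to restrain AP-1 by contact with it, and Fra-1 is known for its high level in mesenchymal-type breast cancer lines.

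Total counts were 106345287 to 123218973 per library. Reads scaled to a common library size with TMM factors are given as CPM (counts per 1e6). Of 6 glucocorticoid-induced genes used to check the treatment, 5 were higher with dexamethasone in HCC70 (ZBTB16 was not called) and all 6 in MDA-MB-231. The labelled lines were checked against markers: KRT5, a basal keratin, averaged 3087 CPM with dexamethasone and 2595 CPM in vehicle in HCC70 but 1.43 and 0.80 CPM in MDA-MB-231, whereas VIM, encoding vimentin, averaged 137 and 145 CPM in HCC70 and 2248 and 2212 CPM in MDA-MB-231. KRT14, another basal keratin, averaged 0.17 CPM with dexamethasone and 0.24 CPM in vehicle in MDA-MB-231, so both keratins were near 0 there. Of the 11 epithelial and basal markers checked, 9 were higher and 1 lower in HCC70 in vehicle, where 79.2% of all tested genes were called. KRT18 was the lower one (435 CPM, against 706 CPM in MDA-MB-231 vehicle). EGFR was not called, at 328 CPM in HCC70 vehicle and 356 CPM in MDA-MB-231 vehicle. Libraries of MDA-MB-231 differed in how their counts, set against the line mean, followed the GC content of genes. Spearman's rho was -0.54, 0.28 and -0.52 in dexamethasone 1, 2 and 3, so dexamethasone 2 stood apart. It was 0.70, 0.17 and -0.25 in vehicle 1, 2 and 3, a graded spread with vehicle 1 highest and vehicle 3 lowest. Results that rest on dexamethasone 2 and vehicle 1 are given with and without them. Whether replicates were separate cultures is not stated in the labels; the p-values here therefore reflect only how far these libraries differ, which can be technical variation.

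In vehicle the lines carried different AP-1 RNA. HCC70 held 12.3 times as much FOS, 7.92 times as much JUNB and 3.80 times as much ATF3 as MDA-MB-231, whereas FOSL1 was 124-fold lower, FOSL2 3.78-fold lower and JUN 1.83-fold lower in HCC70. FOSB and JUND were not called. In all, 3 of 8 genes were higher and 3 lower in HCC70. Of all tested genes 39.2% were higher and 40% lower, 79.2% in either direction, and 80.3% had groups that did not overlap, so a call here is common.

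FOSL1 shows the widest gap. It had 2.59, 3.13 and 2.42 CPM in the HCC70 vehicle libraries, from 282 to 348 reads each, and 352, 323 and 338 CPM in the MDA-MB-231 vehicle libraries. The lines were far from overlapping, with a log2 difference of -6.96 ± 0.12 (SE; edgeR quasi-likelihood test, adjusted p = 2.14e-15). FOS, the classical immediate early partner of JUN, had 29.3, 28.9 and 26.2 CPM in HCC70 vehicle and 2.14, 2.34 and 2.38 CPM in MDA-MB-231 vehicle. Its log2 difference of 3.62 ± 0.082 ran the other way (edgeR, adjusted p = 3.23e-14). FOSL2 had 79.1, 91.0 and 87.1 CPM in HCC70 vehicle and 381, 320 and 271 CPM in MDA-MB-231 vehicle. Every HCC70 library lay below every MDA-MB-231 library for FOSL2 (log2 difference -1.92 ± 0.12; edgeR, adjusted p = 3.08e-09).

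Among the JUN genes, JUNB, whose product is a weaker activator than JUN on many promoters, had 78.8, 95.0 and 88.8 CPM in HCC70 vehicle and 13.4, 10.3 and 9.46 CPM in MDA-MB-231 vehicle. The log2 difference was 2.99 ± 0.17 (edgeR, adjusted p = 1.35e-08). Exons of JUNB overlap those of HOOK2 on the other strand, and the libraries were not stranded, so reads of the pair cannot be told apart and JUNB values are uncertain in every comparison. JUN itself had 68.2, 75.2 and 70.2 CPM in HCC70 vehicle and 156, 121 and 114 CPM in MDA-MB-231 vehicle, again without overlap (log2 difference -0.87 ± 0.12; edgeR, adjusted p = 2.54e-05). JUND, the JUN gene least tied to stimulation, had 80.6, 81.2 and 69.0 CPM in HCC70 vehicle and 88.8, 64.1 and 51.6 CPM in MDA-MB-231 vehicle, so the lines overlapped. ATF3, a stress-induced gene whose product pairs with JUN proteins, had 13.7, 14.2 and 13.3 CPM in HCC70 vehicle and 3.97, 3.67 and 3.19 CPM in MDA-MB-231 vehicle (log2 difference 1.93 ± 0.095; edgeR, adjusted p = 1.34e-10). FOSB was the scarcest member per length of transcript, at 0.304 CPM per kb in HCC70 vehicle and 0.251 in MDA-MB-231 vehicle on average. It had 1.32, 1.06 and 1.06 CPM in HCC70 vehicle and 1.06, 0.80 and 0.98 CPM in MDA-MB-231 vehicle. For FOSB the difference of 0.28 had a 95% interval of -0.06 to 0.61, and for JUND the difference of 0.17 had one of -0.34 to 0.69. JUND turned to -0.31 and was called under an offset that takes out GC and length trends per library (edgeR, adjusted p = 0.00148), FOSB turned to -0.07 under it, and with the MDA-MB-231 libraries dexamethasone 2 and vehicle 1 left out JUND had 0.39 and was called (edgeR, adjusted p = 0.00928).

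**Figure D1:**
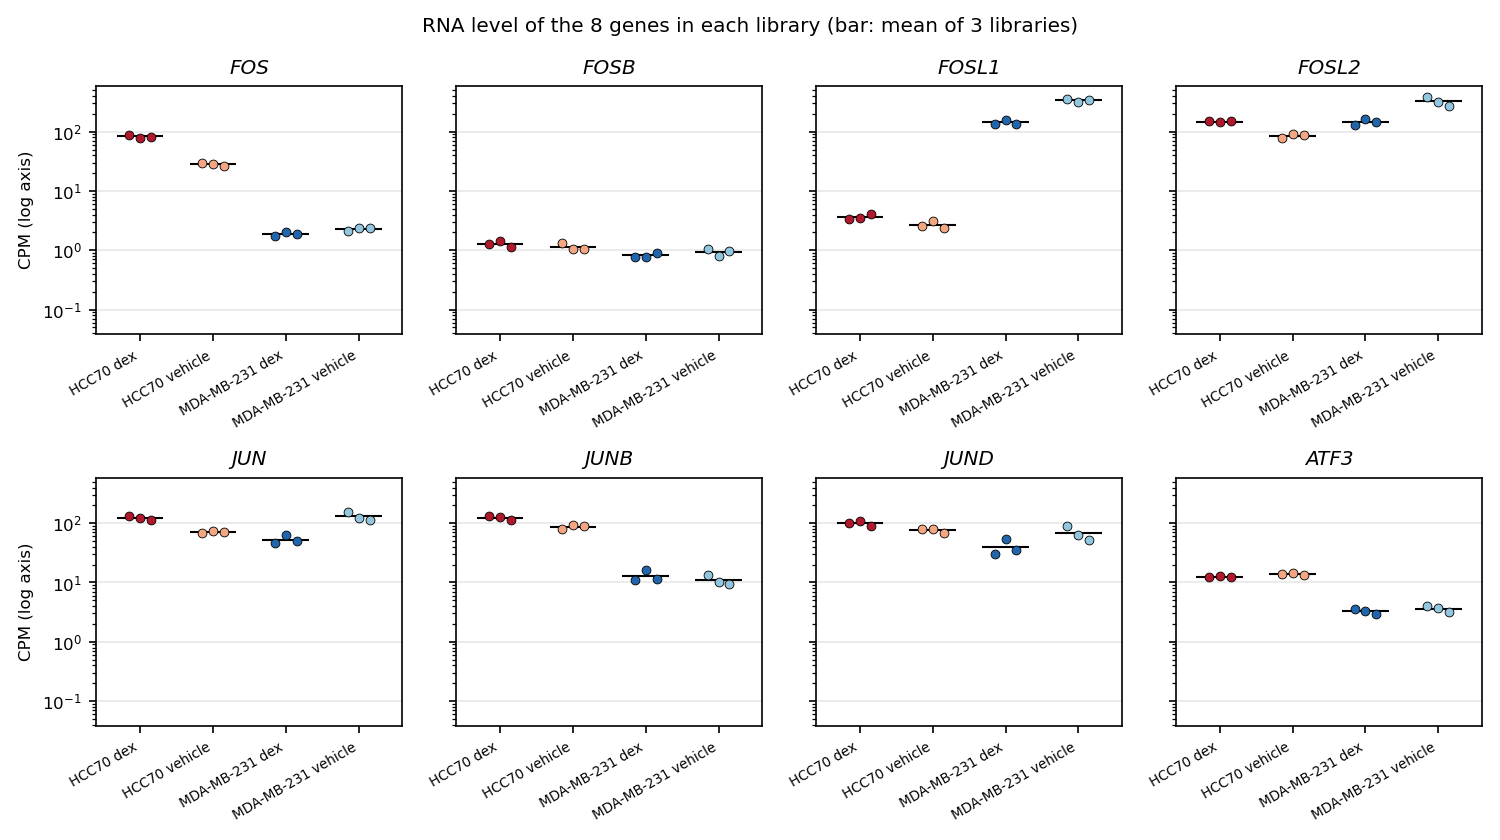
RNA level of each AP-1 gene in each library, as TMM-scaled CPM on a log axis, in the 4 groups of 3 libraries; points are libraries and bars group means. FOSL1 sits near 3 CPM in HCC70 and above 137 CPM in MDA-MB-231, whereas FOS, JUNB and ATF3 are higher in HCC70, and FOSL2 and JUN move in opposite directions with dexamethasone (dex) in the lines.

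Dexamethasone raised FOS, FOSL2, JUN and FOSL1 RNA in HCC70. FOS rose 2.95-fold, FOSL2 1.73-fold, JUN 1.72-fold and FOSL1 1.33-fold, and no member fell. These were 4 of 8 genes, while 2.55% of all tested genes were higher and 1.4% lower in this comparison (3.96% in either direction). The median log2 change of the 8 genes was 0.46, beside -0.010 over all tested genes. The share of counts from mitochondrial genes moved with treatment in HCC70, at 2.73% to 2.82% with dexamethasone and 3.47% to 3.83% in vehicle, and its part in these results was not tested. In MDA-MB-231 it was 3.02% to 3.65% with dexamethasone and 2.50% to 3.89% in vehicle.

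FOS had 88.8, 78.9 and 81.7 CPM in the HCC70 dexamethasone libraries, against 29.3, 28.9 and 26.2 CPM in HCC70 vehicle. The lowest treated library stood well above the highest vehicle library, and the log2 change was 1.56 ± 0.072 (edgeR, adjusted p = 3.11e-08), number 5 of 28141 genes by p-value. FOSL2 had 151, 144 and 149 CPM with dexamethasone, against 79.1, 91.0 and 87.1 CPM in HCC70 vehicle, a log2 change of 0.79 ± 0.11 (edgeR, adjusted p = 0.00126). JUN had 130, 123 and 114 CPM with dexamethasone, against 68.2, 75.2 and 70.2 CPM in HCC70 vehicle, a log2 change of 0.78 ± 0.12 (edgeR, adjusted p = 0.00298). For both genes each treated library lay above each vehicle library. FOSL1 stayed scarce, with 3.32, 3.50 and 4.01 CPM with dexamethasone, against 2.59, 3.13 and 2.42 CPM in HCC70 vehicle (log2 change 0.41 ± 0.10; edgeR, adjusted p = 0.0375).

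Of the other 4 genes, JUNB had 132, 129 and 113 CPM in HCC70 with dexamethasone, against 78.8, 95.0 and 88.8 CPM in vehicle. The log2 change of 0.51 ± 0.16 was not called (edgeR, adjusted p = 0.115). JUND had 99.3, 109 and 89.6 CPM with dexamethasone, against 80.6, 81.2 and 69.0 CPM in vehicle, a log2 change of 0.37 with a 95% interval of -0.14 to 0.88 (edgeR, adjusted p = 0.424). ATF3 had 12.4, 12.6 and 12.4 CPM with dexamethasone, against 13.7, 14.2 and 13.3 CPM in vehicle, a log2 change of -0.14 with an interval of -0.33 to 0.05 (edgeR, adjusted p = 0.425). FOSB had 1.27, 1.45 and 1.14 CPM with dexamethasone, against 1.32, 1.06 and 1.06 CPM in vehicle, and its groups overlapped. The groups of JUNB and JUND did not overlap, with treated libraries above, nor did those of ATF3, with treated libraries below, as was so for 32.4% of all tested genes. With the MDA-MB-231 libraries dexamethasone 2 and vehicle 1 left out of the fit, JUNB and JUND were called too (edgeR, adjusted p = 0.000507 and 0.0353), which made 6 members higher in HCC70. Calls were more common in that fit, with 2532 of all tested genes higher and 1335 lower, against 719 and 395 as reported.

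GC content moved with treatment in HCC70, beside these results. Over 13642 genes the log2 change with dexamethasone rose with the GC content of the transcript (Spearman's rho 0.523, a description across genes, which are not replicates), and the 8 genes have 46.7% (ATF3) to 69.7% GC (JUND), where the median gene with reads has 47.5%. With the GC and length offset, FOS kept a log2 change of 1.56, FOSL2 had 0.69 and JUN 0.66, and all 3 were called (edgeR, adjusted p = 1.12e-10, 4.23e-05 and 6.23e-06). Under the same offset JUNB, at 64.9% GC, had 0.24 and was called (adjusted p = 0.00886), and JUND had -0.03 and was not. FOSL1, at 60.0% GC, had 0.26 and was no longer called under the offset (adjusted p = 0.225). Its call was also lost without dexamethasone 2 or 3 or vehicle 1 or 3 of HCC70 (edgeR, adjusted p = 0.0899, 0.179, 0.169 and 0.130), and without dexamethasone 3 or vehicle 2 of MDA-MB-231 (edgeR, adjusted p = 0.0547 and 0.0503).

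The start regions of FOS, FOSL2 and JUN are shown, as the genes called higher in HCC70 under every alternative run. Each is the RefSeq window of 300 bases, 250 before and 50 after the gene's start on build GRCh38.p14, written along the gene's strand. Capitals mark matches to the motifs searched. FOS lies at chr14:75278578-75278877 on the plus strand, FOSL2 at chr2:28392608-28392907 on the plus strand and JUN at chr1:58783998-58784297 on the minus strand.
FOS: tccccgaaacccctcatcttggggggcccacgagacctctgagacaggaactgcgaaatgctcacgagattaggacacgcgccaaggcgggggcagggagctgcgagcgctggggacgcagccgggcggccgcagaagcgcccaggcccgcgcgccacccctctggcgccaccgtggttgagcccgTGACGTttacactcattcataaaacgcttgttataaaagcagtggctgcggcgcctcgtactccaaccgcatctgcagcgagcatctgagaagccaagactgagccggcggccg
FOSL2: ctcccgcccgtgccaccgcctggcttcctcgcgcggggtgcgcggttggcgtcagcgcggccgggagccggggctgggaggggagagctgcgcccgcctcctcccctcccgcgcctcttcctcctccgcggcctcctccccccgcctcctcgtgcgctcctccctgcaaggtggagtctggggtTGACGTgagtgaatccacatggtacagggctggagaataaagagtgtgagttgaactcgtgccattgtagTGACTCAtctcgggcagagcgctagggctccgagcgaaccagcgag
JUN: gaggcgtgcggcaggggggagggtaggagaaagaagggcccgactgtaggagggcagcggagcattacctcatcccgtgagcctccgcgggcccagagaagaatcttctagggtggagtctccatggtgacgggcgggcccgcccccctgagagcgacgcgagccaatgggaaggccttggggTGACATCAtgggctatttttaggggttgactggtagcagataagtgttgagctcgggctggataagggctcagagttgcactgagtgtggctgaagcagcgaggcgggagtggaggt

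The motifs were searched on both strands in the windows of 7 of the 8 genes, and FOSL1 had no window. TGACTCA, the consensus AP-1 site, was found in FOSL2 only, at positions 5 to 11 counted from the first transcribed base. Of 35116 windows 4.95% hold it. AP-1 sites with other letters are not counted by it. The ATF-like letters TGACATCA were found in JUN at positions -67 to -60 and in ATF3 at -123 to -116, against 2.61% of windows. TGACGTCA, the full cyclic AMP response element, was found in JUND (1.85% of windows). TGACGT, which lies inside that element, was found in 4 genes, FOS, FOSB, FOSL2 and JUND (7.98% of windows). The palindromic glucocorticoid response element was in none of these genes and in 1 window of all, and its arm TGTTCT was in FOSB (14.8% of windows). The CArG box, the letters bound by serum response factor, was in 0 of the 7 genes' windows and in 1.29% of all windows. Sequence more than 250 bases before the start was not searched, so sites there would be missed. Such matches describe letters in a window and say nothing of binding.

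In MDA-MB-231 dexamethasone lowered JUN, FOSL1 and FOSL2. JUN fell 2.46-fold, FOSL1 2.35-fold and FOSL2 2.22-fold, and no member rose. These 3 of 8 genes compare with 7.96% of all tested genes lower and 6.65% higher (14.6% in either direction). The median log2 change of the 8 genes was -0.52, beside -0.010 over all tested genes.

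JUN had 47.0, 62.3 and 49.5 CPM in the MDA-MB-231 dexamethasone libraries, against 156, 121 and 114 CPM in MDA-MB-231 vehicle. The highest treated library was far below the lowest vehicle library (log2 change -1.30 ± 0.12; edgeR, adjusted p = 1.24e-05). FOSL1, the main FOS-type transcript of this line, had 138, 157 and 137 CPM with dexamethasone, against 352, 323 and 338 CPM in MDA-MB-231 vehicle (log2 change -1.23 ± 0.090; edgeR, adjusted p = 3.40e-07). FOSL2 had 129, 165 and 143 CPM with dexamethasone, against 381, 320 and 271 CPM in MDA-MB-231 vehicle (log2 change -1.15 ± 0.11; edgeR, adjusted p = 1.19e-05). None of the 3 genes had overlapping groups, which holds for 27.2% of all tested genes. Without dexamethasone 2 and vehicle 1 the log2 changes were -1.26 for JUN, -1.25 for FOSL1 and -1.10 for FOSL2, each called.

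FOS was low in this line, with 1.77, 2.07 and 1.86 CPM with dexamethasone, against 2.14, 2.34 and 2.38 CPM in MDA-MB-231 vehicle. All treated libraries lay below all vehicle libraries, yet the log2 change of -0.27 ± 0.086 just missed the threshold (edgeR, adjusted p = 0.0517); without dexamethasone 2 and vehicle 1 together it was -0.36 and called (adjusted p = 0.0206). JUND had 30.8, 53.8 and 35.7 CPM with dexamethasone, against 88.8, 64.1 and 51.6 CPM in vehicle, and the groups overlapped through dexamethasone 2 and vehicle 3. Its log2 change of -0.77 ± 0.23 was not called (edgeR, adjusted p = 0.0535). Leaving out dexamethasone 2 gave -1.01 (adjusted p = 0.00578) and leaving out vehicle 3 gave -0.93 (adjusted p = 0.0221). Other single libraries left out weakened the fall of JUND, to as little as -0.53. It was called in 8 of the 25 alternatives.

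JUNB had 10.8, 16.0 and 11.3 CPM in MDA-MB-231 with dexamethasone, against 13.4, 10.3 and 9.46 CPM in vehicle, a log2 change of 0.20 with a 95% interval of -0.16 to 0.56. ATF3 had 3.63, 3.25 and 2.92 CPM with dexamethasone, against 3.97, 3.67 and 3.19 CPM in vehicle, a log2 change of -0.14 with an interval of -0.35 to 0.06. FOSB had 0.77, 0.78 and 0.91 CPM with dexamethasone, against 1.06, 0.80 and 0.98 CPM in vehicle. The groups of these 3 genes overlapped.

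The GC trend ran the opposite way in MDA-MB-231, with a Spearman's rho of -0.467 between GC content and log2 change over the 13642 genes. With the GC and length offset FOSL1 had -1.06, FOSL2 -1.03 and JUN -1.14, each called. JUNB then had 0.56 and was called higher (edgeR, adjusted p = 1.62e-06), FOS had -0.28 and was called lower (adjusted p = 0.0342), and JUND had -0.21 and was not called (adjusted p = 0.0771). With the offset 5 members were thus called in MDA-MB-231, 1 of them higher. Under it 2400 of all tested genes were higher and 2697 lower, against 1870 and 2240 as reported.

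The responses of the lines differed for FOS, FOSL1, FOSL2 and JUN. The log2 response in HCC70 minus that in MDA-MB-231 was 2.08 ± 0.18 for JUN, 1.94 ± 0.16 for FOSL2, 1.83 ± 0.11 for FOS and 1.64 ± 0.14 for FOSL1 (edgeR test of the difference itself, adjusted p = 9.73e-06, 5.60e-06, 1.78e-07 and 3.20e-06). These 4 of 8 genes were all higher, while 6.96% of all tested genes had a higher and 5.09% a lower response in HCC70. FOSL1, FOSL2 and JUN were called higher in HCC70 and lower in MDA-MB-231, which held for 124 of the 28141 genes (0.441%). The GC trend of the difference had a rho of 0.563, and under the offset the values were 1.80 for JUN, 1.73 for FOSL2, 1.84 for FOS and 1.32 for FOSL1, all called. Without MDA-MB-231 dexamethasone 2 and vehicle 1 they were 2.04 for JUN, 1.89 for FOSL2, 1.92 for FOS and 1.66 for FOSL1, all called.

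The difference for JUND, 1.14 ± 0.32, was not called (edgeR, adjusted p = 0.0501) and was 0.18 under the offset. The difference for JUNB was 0.31 with a 95% interval of -0.19 to 0.81, and under the offset it reversed to -0.33 (edgeR, adjusted p = 0.00936). ATF3 had a difference of 0.002 with an interval of -0.28 to 0.28, and FOSB had 0.37 with an interval of -0.10 to 0.85.

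**Figure D2:**
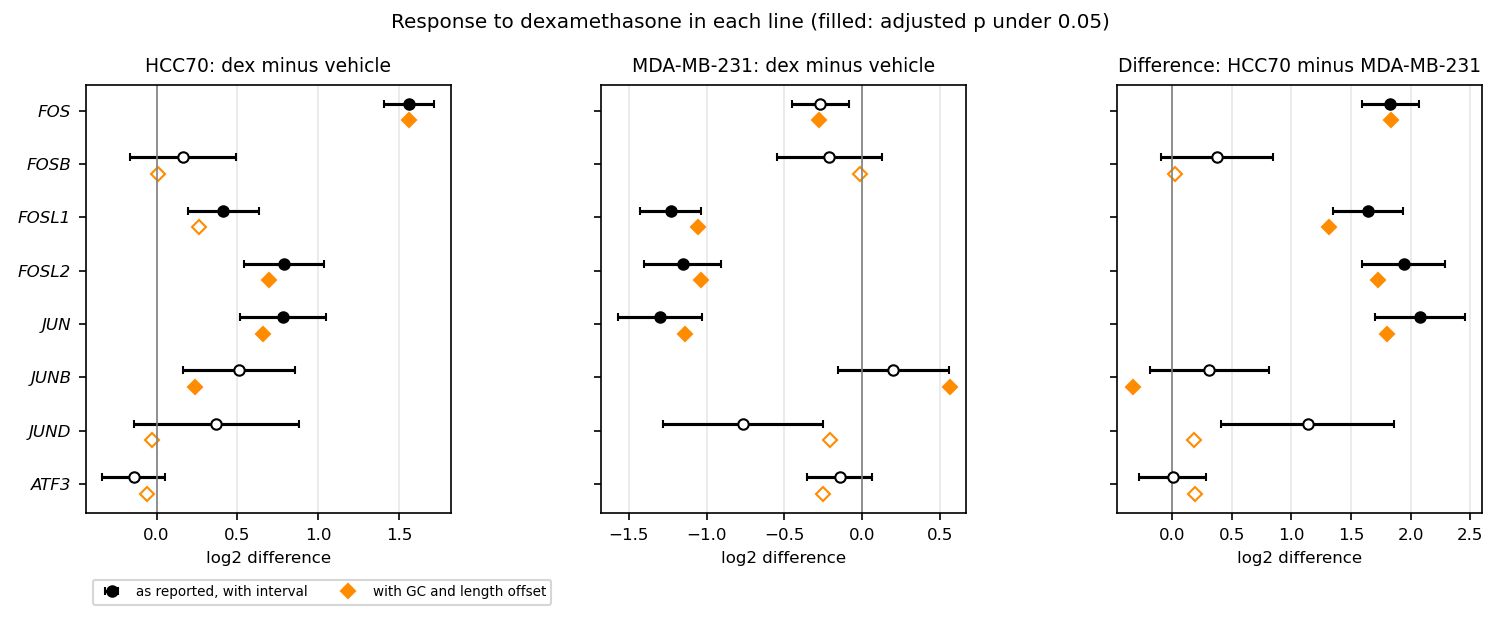
Log2 change with dexamethasone (dex) over vehicle for each gene in HCC70 (left) and MDA-MB-231 (middle), and the HCC70 change minus the MDA-MB-231 change (right). Circles with 95% intervals are the values as reported and diamonds those with the GC and length offset; filled symbols have an adjusted p under 0.05. FOSL2 and JUN lie right of 0 in HCC70 and left of 0 in MDA-MB-231 with both.

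Across the 4 groups the order of levels differed by gene. For FOS the order was HCC70 with dexamethasone, HCC70 vehicle, MDA-MB-231 vehicle and MDA-MB-231 with dexamethasone, with no overlap between neighbours. For FOSL1 it was MDA-MB-231 vehicle, MDA-MB-231 with dexamethasone, HCC70 with dexamethasone and HCC70 vehicle, also without overlap. FOSL2 was highest in MDA-MB-231 vehicle and lowest in HCC70 vehicle, and its ranges in HCC70 with dexamethasone (144 to 151 CPM) and MDA-MB-231 with dexamethasone (129 to 165 CPM) overlapped. JUN in HCC70 with dexamethasone (114 to 130 CPM) overlapped JUN in MDA-MB-231 vehicle (114 to 156 CPM), above HCC70 vehicle and then MDA-MB-231 with dexamethasone. JUND in MDA-MB-231 vehicle (51.6 to 88.8 CPM) overlapped both HCC70 vehicle and MDA-MB-231 with dexamethasone.

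Per length of transcript, the make-up of AP-1 RNA can be set side by side across genes. CPM were divided by the length in kb of the longest transcript of each gene (GENCODE 29). The 8 genes summed to 225 ± 12.3 CPM per kb in HCC70 with dexamethasone and 144 ± 7.90 in HCC70 vehicle, and to 154 ± 19.5 in MDA-MB-231 with dexamethasone and 333 ± 32.4 in MDA-MB-231 vehicle (SD, n = 3 each). The ranges did not overlap within either line, and the lines were in the opposite order with dexamethasone and in vehicle. These sums, and the shares and ratios below, were made without the GC and length offset. JUNB and JUND, the largest shares in HCC70, had log2 changes there of 0.51 and 0.37 as reported. Under the offset they had 0.24 and -0.03, and the sums were not rerun with it.

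FOSL1 made up 0.966% ± 0.152 of this sum in HCC70 with dexamethasone and 1.13% ± 0.0924 in HCC70 vehicle, against 56.2% ± 2.82 in MDA-MB-231 with dexamethasone and 61.0% ± 4.04 in MDA-MB-231 vehicle (SD, n = 3 each). FOS made up 17.1% ± 1.10 in HCC70 with dexamethasone and 9.09% ± 0.563 in HCC70 vehicle. JUNB was the largest share in HCC70, at 30.3% ± 0.753 with dexamethasone and 33.4% ± 2.14 in vehicle, with its uncertainty over HOOK2. Among the FOS-type genes alone, FOS held 61.0% ± 1.12 in HCC70 with dexamethasone and 47.0% ± 2.45 in HCC70 vehicle, and FOSL2 held 35.0% ± 0.727 and 46.0% ± 2.59 in the same groups.

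The summed FOS-type level over the summed JUN-type level was 0.405 ± 0.0354 in HCC70 with dexamethasone and 0.254 ± 0.00448 in HCC70 vehicle, against 2.57 ± 0.363 in MDA-MB-231 with dexamethasone and 3.25 ± 0.519 in MDA-MB-231 vehicle (SD, n = 3 each). JUN-type RNA thus outweighed FOS-type RNA in every HCC70 library and the reverse held in every MDA-MB-231 library. The treated and vehicle ranges did not overlap in HCC70 (0.369 to 0.440 against 0.249 to 0.258) and did in MDA-MB-231 (2.16 to 2.87 against 2.72 to 3.75). The overlap in MDA-MB-231 lies between vehicle 1 (2.72) and dexamethasone 1 (2.87), and leaving out either 1 would end it. Without dexamethasone 2 and vehicle 1 the ratios there were 2.87 and 2.66 with dexamethasone and 3.27 and 3.75 in vehicle. These did not overlap, but 2 libraries against 2 separate easily, so nothing is concluded from it. These are RNA levels of whole cultures, in which fewer cells of a kind and less RNA per cell cannot be told apart, and they do not measure protein or dimers.

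**Figure D3:**
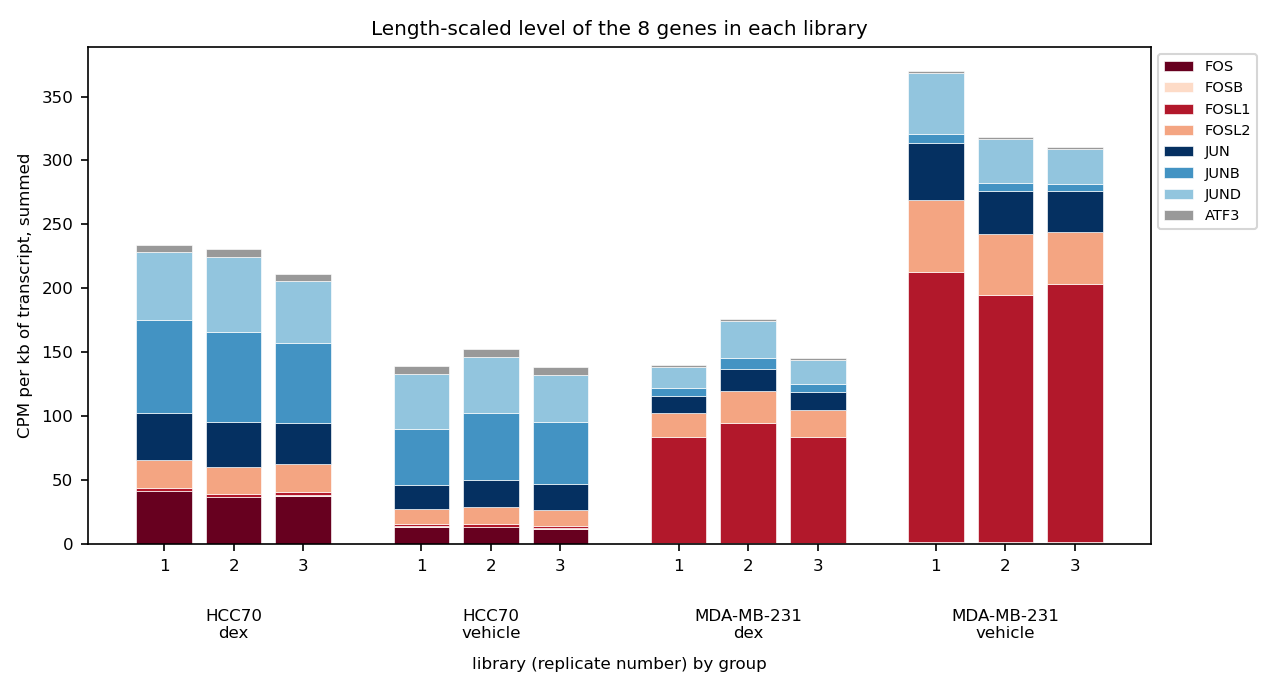
Length-scaled RNA level (CPM per kb of transcript) of the 8 AP-1 genes stacked for each library, by group; dex is dexamethasone. The sum is higher with dexamethasone than in vehicle in HCC70 (225 and 144 on average) and lower in MDA-MB-231 (154 and 333), where FOSL1 is the largest block.

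Among other basic leucine zipper genes, MAFF rose with dexamethasone in HCC70 and BATF in MDA-MB-231. Of 16 partners and relatives of AP-1, 1 was higher and 1 lower with dexamethasone in HCC70 (2.55% and 1.4% of all genes). MAFF, a small MAF protein gene, rose there by 0.69 ± 0.088 on the log2 scale (edgeR, adjusted p = 0.000361) and NFE2L2, the oxidative stress regulator NRF2, fell by 0.26 ± 0.063 (edgeR, adjusted p = 0.0335). The call of NFE2L2 was lost without any 1 of dexamethasone 1, 2 or 3 or vehicle 1 or 2 of HCC70 or dexamethasone 3 of MDA-MB-231. In MDA-MB-231, 2 were higher and 4 lower, beside 6.65% and 7.96% of all genes, or 2 lower without dexamethasone 1 or without dexamethasone 3 of that line. BATF, an AP-1 partner of JUN best known from lymphocytes, averaged 4.42 CPM with dexamethasone and 0.96 CPM in MDA-MB-231 vehicle, a log2 rise of 2.20 ± 0.12 (edgeR, adjusted p = 1.69e-08), and JDP2, a JUN-binding repressor, rose by 0.50. MAFK, MAFG and MAFF, the small MAF genes, fell there by 1.08, 0.55 and 0.52 on the log2 scale. In the difference of responses 3 were higher and 2 lower (6.96% and 5.09% of all genes), and the largest were -2.28 ± 0.16 for BATF and 1.60 ± 0.35 for MAFK (edgeR, adjusted p = 5.52e-07 and 0.0191). In vehicle 7 were higher and 6 lower in HCC70, beside 39.2% and 40% of all genes, led by BATF at 3.99 and JDP2 at 3.29 above and MAFF at -2.41 and MAFG at -1.44 below.

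The kinases and serum response factors that act upstream of AP-1 were mostly not called with treatment. Of 21 tested, 1 was higher in HCC70, RPS6KA1, a kinase below ERK, at 0.33 ± 0.083 (edgeR, adjusted p = 0.0443). Over all genes 2.55% were higher and 1.4% lower there. That call was lost without any 1 of the HCC70 libraries and without dexamethasone 1, dexamethasone 3 or vehicle 2 of MDA-MB-231, and over all alternatives 0 to 7 of the 21 were higher. In MDA-MB-231, 2 were higher and 1 lower, 3 of 21 in all, which is near the 14.6% of all genes called there. MAP3K1 rose by 0.53 and ELK3 by 0.48 on the log2 scale, and SRF, encoding serum response factor, fell by 0.57 ± 0.17 (edgeR, adjusted p = 0.0443). The fall of SRF was not called without any 1 of the HCC70 libraries, nor without dexamethasone 1 or 3 or vehicle 1 or 2 of MDA-MB-231. The difference of responses had 2 higher and 1 lower (6.96% and 5.09% of all genes), with SRF at 0.91 and MAP3K1 at -0.43, and over the alternatives 0 to 7 were higher and 0 to 3 lower. In vehicle 9 were higher and 11 lower in HCC70, against 39.2% and 40% of all genes, with MAPK3 (ERK1) at 2.49 and ELK3 at -2.14.

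Among textbook AP-1 target genes, IL11, HBEGF and VEGFA fell most in MDA-MB-231 of those whose log2 CPM averaged 1 or more. Of 19 tested, 1 was higher and 11 lower there with dexamethasone, beside 6.65% and 7.96% of all genes, and the median log2 change was -0.65 against -0.010 over all tested genes. In HCC70, 2 were higher and 1 lower, beside 2.55% and 1.4% of all genes, with a median of 0. Over the alternatives 2 to 5 were higher and 0 to 4 lower in HCC70, with 5 higher when the MDA-MB-231 libraries dexamethasone 2 and vehicle 1 were left out. In that fit 2532 of all tested genes were higher in HCC70, against 719 as reported. The medians count IVL in MDA-MB-231 and MMP1 in HCC70, which had no read there, at 0, and 4 of the 23 listed genes in the table did not pass the filter. Members of this list are known targets in other cells and were not shown here to be bound by AP-1.

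IL11, a cytokine of the IL-6 family, averaged 1.71 CPM with dexamethasone and 23.6 CPM in MDA-MB-231 vehicle, a log2 change of -3.79 ± 0.18 (edgeR, adjusted p = 1.16e-08). HBEGF, a ligand of the EGF receptor, averaged 12.6 CPM with dexamethasone and 41.3 CPM in MDA-MB-231 vehicle (log2 change -1.71 ± 0.089; edgeR, adjusted p = 1.04e-08). VEGFA, the angiogenic growth factor, fell to 246 CPM with dexamethasone, against 572 CPM in MDA-MB-231 vehicle (log2 change -1.22 ± 0.069), and in HCC70 it averaged 660 CPM with dexamethasone and 505 CPM in vehicle (log2 change 0.39 ± 0.068; edgeR, adjusted p = 0.00492). CCND1, encoding cyclin D1, likewise rose in HCC70 (0.48 ± 0.053) and fell in MDA-MB-231 (-0.65 ± 0.053). EZR, encoding ezrin, was the target that rose in MDA-MB-231, by 0.73 ± 0.054.

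The gene that was lower in HCC70 was IL6, which lies outside the rule for named genes and was singled out after its values were seen. It had 0, 1 and 0 reads with dexamethasone, against 8, 2 and 12 reads in HCC70 vehicle. Its call was lost without dexamethasone 1 or 3 or vehicle 1 or 3 of HCC70. In the difference of responses 9 targets were higher and 1 lower, where 6.96% and 5.09% of all genes were, with IL11 at 4.24 ± 0.28, HBEGF at 1.78 ± 0.14 and VEGFA at 1.60 ± 0.097 above and EZR at -0.62 ± 0.076 below (edgeR, adjusted p = 7.27e-07, 1.81e-06, 1.73e-07 and 0.000139). In vehicle 4 targets were higher and 13 lower in HCC70, a comparison in which 79.2% of all genes were called, with HMOX1, the heme oxygenase gene, at 0.96 above and PLAU at -4.98, IL11 at -4.98 and HBEGF at -4.54 below. Under the strict filter, which tests fewer genes, 2 were higher and 11 lower. Exons of VEGFA, CCND1, PLAU, EZR, IL6, MAFK, MAFG, JDP2, NFE2L2, MAP3K1 and ELK3 overlap other genes, mostly on the other strand, and their values carry the same uncertainty as JUNB. The same holds for LIF and for the line markers VIM, EGFR and KRT18, the last of which overlaps KRT8.

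**Figure D4:**
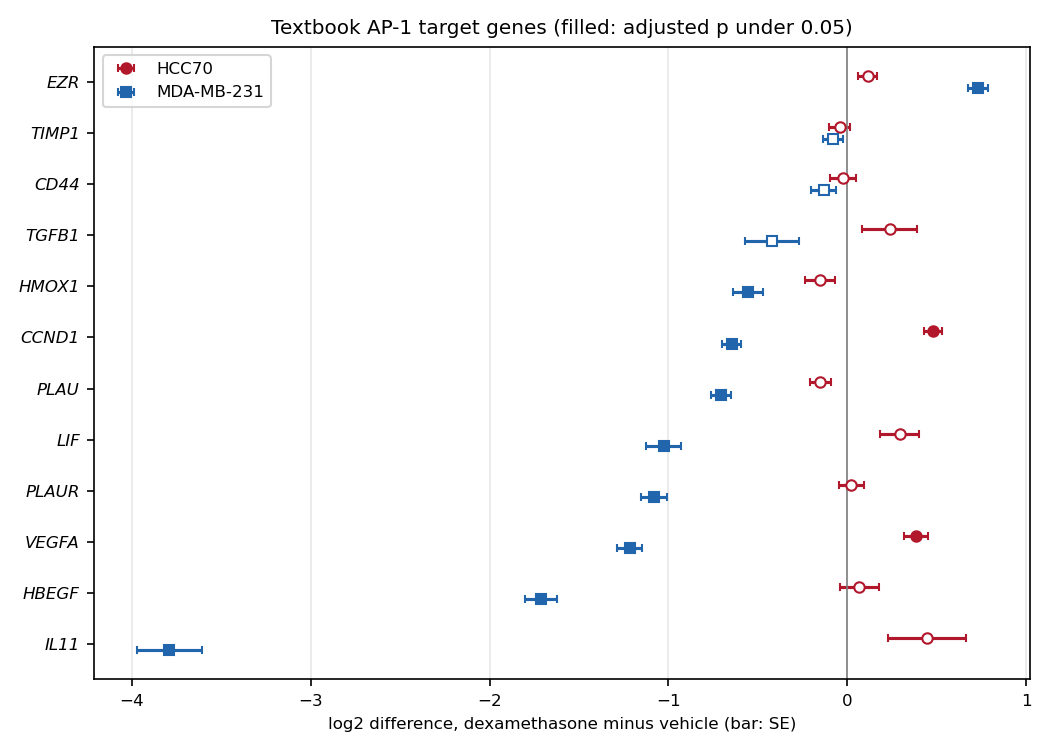
Log2 change with dexamethasone over vehicle, with SE, of the 12 textbook AP-1 target genes whose log2 CPM averaged 1 or more, in HCC70 (circles) and MDA-MB-231 (squares); filled symbols have an adjusted p under 0.05. IL11, HBEGF, VEGFA, PLAUR and LIF lie left of -1 in MDA-MB-231, and EZR lies right of 0 there.

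The genes whose levels ran most like each member over the 12 libraries were taken by Pearson's r of log2 CPM among 14347 candidates, as a description, since the libraries share line and treatment. For JUN they were ARTN, a GDNF-family ligand (r = 0.994), and WNT7B (r = 0.964). ARTN had log2 changes of 1.44 in HCC70 and -2.34 in MDA-MB-231 with dexamethasone. For FOSL2 they were TNFRSF12A, the TWEAK receptor (r = 0.985), and RP11-276H7.2, classed as antisense (r = 0.981). For FOS they were RNF144B (r = 0.997) and FAM43A (r = 0.996), for FOSL1 ENO2 (r = 0.999) and KIAA1549 (r = 0.998), and for JUNB MAP3K6 and TPPP (both r = 0.998). For ATF3 they were HHLA3 (r = 0.999) and PKIB (r = 0.998), for JUND PRR7 (r = 0.988) and SH2B2 (r = 0.982), and for FOSB ZNF771 (r = 0.944) and PDF (r = 0.904).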

How the data were processed

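PolyA RNA was sequenced from 12 libraries as non-stranded, transposase-made libraries with paired-end 50 bp reads, per the labels' protocols. The authors deposited whole-number read counts per gene, not scaled between libraries. The submitters' processing notes name the build hg19 and the tools TopHat 1.4.1, Cufflinks 1.3.0 and bedtools, with no roles; the tool that made the counts is not given in the sources used here. Of the 51838 entries, 11496 had no read, and totals were 106345287 to 123218973 counts per library. FOSB had the fewest reads of the 8 genes, 96 to 159 per library, and its counting error is not small beside its changes.

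In edgeR 4.0.16 (R 4.3.3), filterByExpr at a minimum count of 10 left 28141 genes, which were scaled with TMM factors. A robust quasi-likelihood fit, with the 4 groups as coefficients, covered the 12 libraries (8 residual degrees of freedom), and its tests were two-sided. Benjamini-Hochberg adjustment covered every tested gene, genes under 0.05 are called, and only rows of the family and of 3 pathway lists are printed. From those lists 3 genes are not reported here and were left out of the lists' counts and medians. SE is the log2 change divided by the root of F. GC content, length and exon overlap came from GENCODE 29, on another build than the counts, so it gave no coordinates; 25272 tested genes (89.8%) had a GC value. Promoter windows are RefSeq's.

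The members and lists, and how genes were picked for naming (all members; per list and comparison the 3 called genes of largest change in each direction whose log2 CPM averaged 1 or more, of which the leading ones are given; the 2 most similar genes per member) were chosen with earlier results of these data known. Alternatives were DESeq2 size factors, upper quartile or library size scaling, no filter or a strict one (5 CPM in 3 libraries), DESeq2 1.42.0 and limma voom (limma 3.58.1). Others were a fit without the robust option, a block for replicate numbers, the GC and length offset, and each line alone. Libraries were also left out: MDA-MB-231 dexamethasone 2 and vehicle 1 together (the 2 libraries out), and each library singly. No 2 libraries of a group agreed within sampling noise.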

Additional observations from a re-analysis of the deposited data

Results flagged for a closer look

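The dexamethasone response differed between HCC70 and MDA-MB-231, by a test of the difference itself, for 4 genes. JUN had a log2 difference of 2.08, with a response of 0.78 in HCC70 and -1.30 in MDA-MB-231. FOSL2 had a difference of 1.94, with 0.79 in HCC70 and -1.15 in MDA-MB-231. For FOS the difference was 1.83, with 1.56 in HCC70 and -0.27, not called, in MDA-MB-231. FOSL1 had a difference of 1.64, with 0.41 in HCC70 and -1.23 in MDA-MB-231. All 4 differences were called under each of the 24 alternatives run for them, and the smallest value among these was 1.31, for FOSL1 under the GC and length offset with the replicate block. Line and culture medium cannot be told apart here.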

How the results depend on the processing

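Over 780 alternatives to the 32 member results, 709 kept the direction and the side of the threshold, 37 gained a call, 11 lost one, all for FOSL1 in HCC70, and 23 changed sign. FOS, FOSL2 and JUN in HCC70, and FOSL1, FOSL2 and JUN in MDA-MB-231, kept their calls under every alternative run. FOSL1 in HCC70 also lost its call with library size scaling (adjusted p = 0.0831), voom (0.0839) and the offset with the block (0.246). Under the GC and length offset, and with the block added, the sign turned for JUND in HCC70 (-0.025 and -0.023), JUND in vehicle (-0.31 and -0.31), FOSB in vehicle (-0.071 and -0.072) and JUNB in the difference (-0.33 and -0.32). ATF3 in the difference, at 0.002, turned to -0.013 (DESeq2 size factors), -0.036 (upper quartile), -0.11 (library size), -0.0036 (no filter), -0.022 (strict filter), -0.013 (DESeq2) and -0.090 (MDA-MB-231 dexamethasone 2 and vehicle 1 out), and ran from -0.078 to 0.084 with single libraries out. JUNB in HCC70 gained a call in 7 alternatives, with adjusted p down to 0.000346 with HCC70 fitted alone, JUND in HCC70 gained one in 2, with HCC70 alone (0.00537) and with the 2 libraries out (0.0353), and the difference for JUND gained one in 11 alternatives, with adjusted p down to 0.000558; the cause was not tested.

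Members called in HCC70 numbered 4, and 3 to 6 over the alternatives. They were 3 with library size scaling, voom, the block and some single libraries out, and 6 with the line alone and with the 2 libraries out. Members called in MDA-MB-231 numbered 3, or 5 with the strict filter, with the offset and with the 2 libraries out; single libraries out gave 3 to 5, with 5 without dexamethasone 2. All genes called in HCC70 numbered 1114, or 1686 with DESeq2, 695 with the block, 2083 with the offset, 4828 with the line alone, 3867 with the 2 libraries out, and 510 to 1775 with single libraries out, with 510 to 610 without any 1 of HCC70 dexamethasone 1 to 3 or vehicle 1 or 2 and 1775 without MDA-MB-231 vehicle 1. In MDA-MB-231 the 4110 calls became 2116 with the line alone and 2424 to 6452 with single libraries out (2424 and 2463 without dexamethasone 1 and 3, 6452 without dexamethasone 2). They were 2990 without vehicle 1 and 5762 without vehicle 3 of that line. In vehicle the 22294 calls became 11980 under the strict filter, which tests fewer genes. In the difference the 3391 calls became 2059 with the block, 6206 with the 2 libraries out and 1614 to 6259 with single libraries out (1614 to 2144 without any 1 of the same 5 HCC70 libraries or MDA-MB-231 dexamethasone 1 or 3, 6259 without MDA-MB-231 dexamethasone 2, 5789 without vehicle 3). Library size scaling moved the median of the difference to -0.14, against -0.02 as reported, upper quartile scaling moved the vehicle median to -0.10, and library size scaling turned 719 higher and 395 lower calls in HCC70 into 552 and 762, and 1960 and 1431 in the difference into 1766 and 2498.

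Whether replicate numbers pair the samples cannot be decided here. Deviations of same-numbered treated and vehicle libraries from their group means correlated at -0.23, 0.12 and 0.01 in HCC70 and -0.63, -0.26 and 0.33 in MDA-MB-231, with no common sign in either line. The libraries also differed in their GC trends, which enter these correlations. With the replicate block FOSL1 in HCC70 had an adjusted p of 0.0774 and JUND was called in MDA-MB-231 (0.0412) and in the difference (0.0447). FOSB had no value under the strict filter, and the vehicle and difference comparisons have none with each line alone.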
